A study of Homo sapiens with 15 samples.

Results

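Complement components, their receptors and the pentraxin *PTX3* were followed in human monocytic THP-1 cells stimulated with bacterial extracellular vesicles (BEVs). The group was given as a list of 10 gene symbols (*C3*, *CFB*, *C1R*, *C1S*, *SERPING1*, *CFD*, *CFP*, *C3AR1*, *C5AR1* and *PTX3*), and each symbol matched exactly 1 of the 60286 genes in the deposited count table. Of the 10 genes, 9 were among the 17198 genes with enough reads for a test, and *CFB* was not. THP-1 is a single leukemic monocyte line, labelled wild type, so the 15 libraries hold no donor variation. The NC cells received PBS. The EUC and EPL cells received *E. coli* BEVs at 1 μg/mL, isolated by ultracentrifugation (UC) or by precipitation with epsilon-poly-L-lysine (PL). The SUC and SPL cells received *S. aureus* BEVs at 10 μg/mL, again isolated by UC or PL. Each group had 3 libraries, the methods of the study state 6 h of incubation, and the labels give day 0 for every library. Species and dose changed together and cannot be told apart. The labels do not say whether replicates were separate cultures grown on separate days, so the p-values measure the spread between these libraries.

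Complement is a cascade of plasma and tissue proteins that marks microbes for uptake. The classical pathway starts when C1q binds a target and switches on the proteases C1r and C1s, which SERPING1 (C1 inhibitor) blocks. The alternative pathway runs on factor B, factor D and properdin. Both pathways cleave C3, the central component, and the small fragments released from C3 and C5 call in and activate leukocytes through the receptors C3AR1 and C5AR1. PTX3 is a long pentraxin, a pattern recognition protein that binds microbes and C1q and belongs to the acute-phase proteins. The liver makes most plasma complement, and monocytes and macrophages are a local source.

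The libraries held 14399421 to 16637345 gene-assigned reads. Levels are given as CPM, the usual unit of read counts scaled to the TMM-normalized library size. Of 10 monocyte markers 9 reached 1 CPM in at least 1 library, *CD68* being the exception, and their summed level was 1288 to 1310 CPM in NC and 1762 to 2293 CPM in stimulated libraries. Of 6 hepatocyte markers, 1 reached 1 CPM in at least 1 library. This was *ALB*, for albumin, with a mean of 0.712 CPM over all libraries. The 6 summed to 1.25 to 1.6 CPM in NC and 0.875 to 2.5 CPM in stimulated libraries. Among the stimulated libraries, a separate cluster in complete linkage of log2 CPM, cut into 3 clusters, held EUC2, EUC3, EPL1 and SUC3. At a cut into 4 it split into EUC2 with EPL1 and EUC3 with SUC3. In EUC3 and SUC3 short transcripts were also high against long ones. The median log2 deviation of genes with transcripts of up to 2380 bases exceeded that of genes with transcripts of over 4474 bases by 0.315 in EUC3, 0.253 in SUC3 and 0.135 in EPL1, against -0.126 to 0.044 in the other 9 stimulated libraries. Results that rest on EUC2, EUC3, EPL1 and SUC3 are given with and without these 4 libraries. Without them EUC is the single library EUC1, which is then assumed to vary like the other groups, and EPL and SUC have 2 libraries each.

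Against NC, the same 5 genes were up-regulated in every stimulated group: *C3*, *CFP*, *C3AR1*, *C5AR1* and *PTX3*. *C1S* was down-regulated in EUC, EPL and SPL. *C1R*, *SERPING1* and *CFD* were called in no group. Genes counted as DEGs when the edgeR adjusted p did not exceed 0.01 and the log2 fold change reached 1 or -1. The adjusted p-values are Benjamini-Hochberg values over all 17198 tested genes. The 5 up-regulated genes out of 9 stand beside 9.43% (EUC), 9.38% (EPL), 6.82% (SUC) and 7.76% (SPL) of all tested genes up-regulated. The 1 down-regulated gene stands beside 5.75% of all tested genes in EUC, 5.15% in EPL and 3.7% in SPL, and in SUC the background of down-regulation was 3.06% with 0 of the 9. The 9 genes had a median log2 fold change of 1.49 (EUC) and 1.64 (EPL) with *E. coli* BEVs and 1.63 (SUC) and 1.55 (SPL) with *S. aureus* BEVs, and the median of all tested genes lay between -0.00651 and 0.00673. The list was drawn up with earlier results of these libraries known, and the 4 comparisons share the NC libraries. In bulk RNA, more cells expressing a gene and more RNA per cell cannot be told apart.

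**Figure D1:**
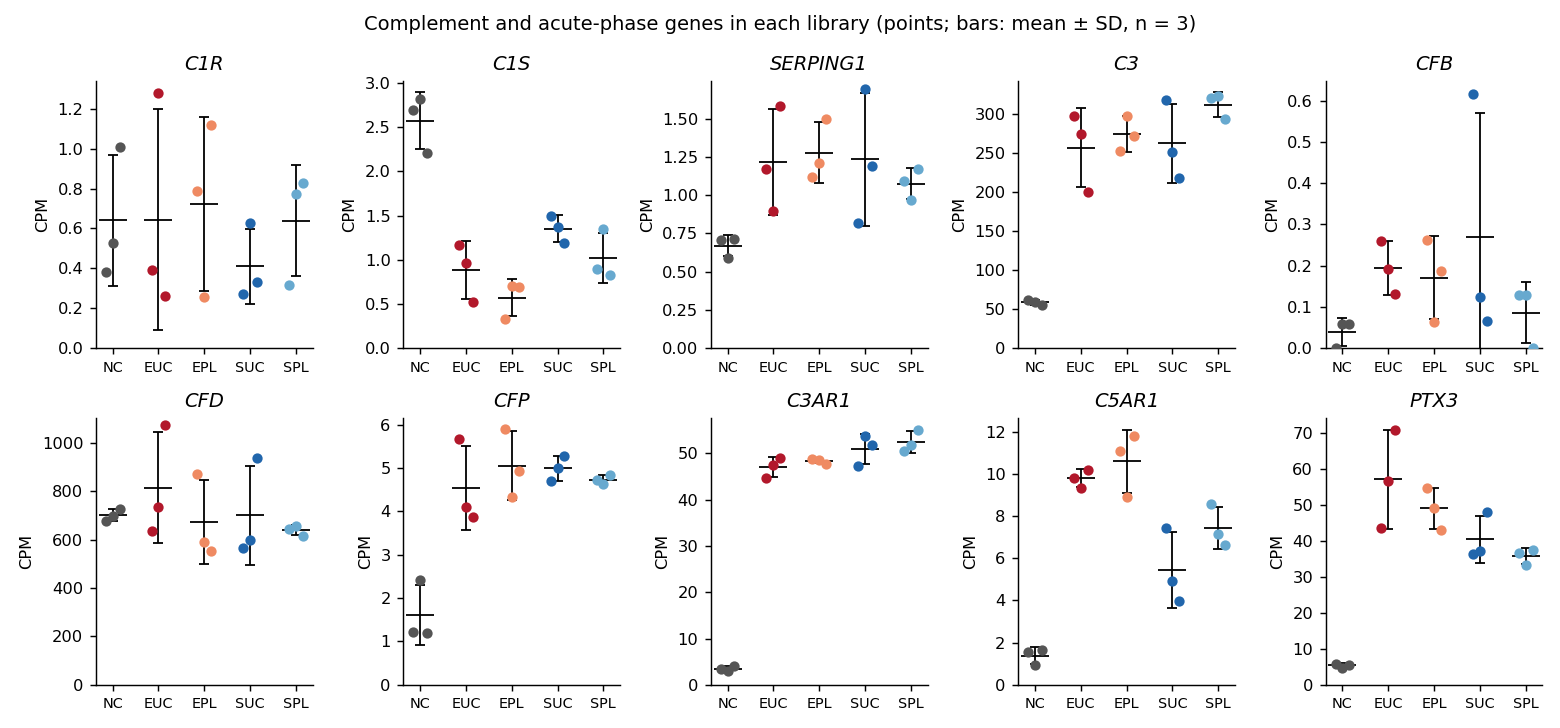
CPM of the 10 genes in each of the 15 libraries, 1 panel per gene with its own axis from 0. Points are libraries, and horizontal marks with bars are the mean ± SD of 3 libraries (bars that would pass below 0 are clipped). *C3*, *CFP*, *C3AR1*, *C5AR1*, *PTX3* and *SERPING1* lie above every NC library in all 12 stimulated libraries, as do 17.5% of all tested genes. *C1S* lies below every NC library in all 12, as do 16.1%.

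*C3AR1* (ENSG00000171860, chromosome 12, 8056844 to 8066359, minus strand, hg38) encodes the receptor for the C3a fragment and rose most among the 9 tested genes. Its level was 3.33, 3.06 and 4.05 CPM in the NC libraries. It was 44.7, 47.5 and 48.9 CPM in EUC and 48.7, 48.5 and 47.8 CPM in EPL. It was 47.3, 53.7 and 51.9 CPM in SUC and 50.5, 51.8 and 55.1 CPM in SPL. All 12 stimulated libraries lay within 44.7 to 55.1 CPM, far above the highest NC library. Every SPL library was above every EUC and EPL library, and the SUC libraries overlapped with those of the other stimulated groups. How many tested genes separate SPL from EUC and EPL in this way was not worked out. Of all tested genes, 17.5% had every stimulated library above every NC library. The log2 fold changes were 3.75 in EUC (standard error 0.108, edgeR adjusted p = 3.3e-14), 3.79 in EPL (adjusted p = 3.17e-14), 3.87 in SUC (adjusted p = 4.85e-14) and 3.91 in SPL (adjusted p = 3.03e-14), which are 13.5-fold to 15-fold rises. Over all fits tried they stayed between 3.59 and 4.03.

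*C5AR1* (ENSG00000197405, chromosome 19, 47290023 to 47322066, plus strand) encodes the receptor for C5a, a strong attractant of neutrophils and monocytes. Its level was 1.54, 0.941 and 1.67 CPM in NC. It rose to 9.82, 9.35 and 10.2 CPM in EUC and 11.1, 8.92 and 11.8 CPM in EPL. With *S. aureus* BEVs it reached 7.45, 4.94 and 3.96 CPM in SUC and 8.56, 7.15 and 6.62 CPM in SPL. Every *E. coli* library was above every *S. aureus* library, and the share of all tested genes separated in this way was not worked out. The lowest stimulated library, SUC3, was still above the highest NC library. The log2 fold change was 2.82 in EUC (standard error 0.242, edgeR adjusted p = 4.8e-08), 2.94 in EPL (0.241, adjusted p = 2.86e-08), 1.97 in SUC (0.254, adjusted p = 1.02e-05) and 2.43 in SPL (0.247, adjusted p = 5.46e-07).

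*PTX3* (ENSG00000163661, chromosome 3, 157436850 to 157443633, plus strand) was at 5.82, 4.76 and 5.6 CPM in NC. It was 43.6, 56.8 and 71 CPM in EUC and 54.8, 49.2 and 43.2 CPM in EPL. It was 36.3, 37.1 and 48.1 CPM in SUC and 36.8, 33.3 and 37.6 CPM in SPL. The lowest stimulated library, at 33.3 CPM, stood well over all NC libraries, and the *E. coli* and *S. aureus* groups overlapped through SUC3, the library with the highest *PTX3* level among the *S. aureus* groups. The log2 fold changes were 3.40 in EUC (standard error 0.179, edgeR adjusted p = 7.18e-11), 3.18 in EPL (adjusted p = 1.88e-10), 2.91 in SUC (adjusted p = 9.35e-10) and 2.73 in SPL (adjusted p = 1.81e-09). EUC3 held the highest value of all, and its short transcripts were high in general, as given above. In EUC1 alone, the EUC library outside the separate cluster, the log2 fold change was 3.02. *PTX3* shares 71 exon bases with *VEPH1* on the other strand, which had 27 reads over all 15 libraries.

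The RefSeq promoter table (GRCh38.p14) held 9 windows for 7 of the 10 genes, each reaching from 250 bases before to 50 bases after a transcription start. The stretches before the start of the 3 genes with the largest rises that had a window are shown, since these genes rose together. Capitals mark letters of a searched motif. They lie at chr12:8066360-8066609 (minus strand) for *C3AR1*, chr19:47309611-47309860 (plus strand) for *C5AR1* and chr3:157436600-157436849 (plus strand) for *PTX3*, and are written 5′ to 3′.
C3AR1: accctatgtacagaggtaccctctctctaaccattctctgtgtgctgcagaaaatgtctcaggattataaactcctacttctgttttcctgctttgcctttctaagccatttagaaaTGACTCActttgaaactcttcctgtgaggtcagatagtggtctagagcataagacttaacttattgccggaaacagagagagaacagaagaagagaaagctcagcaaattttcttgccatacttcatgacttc
C5AR1: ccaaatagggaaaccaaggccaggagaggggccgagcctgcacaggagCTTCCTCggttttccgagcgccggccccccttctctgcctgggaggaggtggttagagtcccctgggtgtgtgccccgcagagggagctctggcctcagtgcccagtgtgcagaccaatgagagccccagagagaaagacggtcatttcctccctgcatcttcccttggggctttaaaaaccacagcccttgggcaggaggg
PTX3: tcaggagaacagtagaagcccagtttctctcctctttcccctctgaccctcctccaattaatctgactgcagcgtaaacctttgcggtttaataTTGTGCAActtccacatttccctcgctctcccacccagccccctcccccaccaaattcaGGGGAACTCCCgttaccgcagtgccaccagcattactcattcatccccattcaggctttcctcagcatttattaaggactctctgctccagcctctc
The motifs were the NF-kappa B consensus, a C/EBP motif (TTGCNNAA), a GAS element for STAT factors (TTCNNNGAA), an interferon-stimulated response element (GAAANNGAAA), an AP-1 site (TGANTCA) and an ETS motif of the PU.1 kind (GAGGAAG), searched on both strands. *PTX3* held 2 matches to the NF-kappa B consensus that overlap each other (positions -97 to -87 from the start) and a C/EBP match at -156 to -149. *C3AR1* held an AP-1 match at -133 to -127. *C5AR1* held an ETS match at -202 to -196. Of 35116 promoter windows of this length, 11.3% held the NF-kappa B consensus, 10.5% the C/EBP motif, 7.66% the GAS element, 3.57% the response element, 7.71% the AP-1 site and 13.6% the ETS motif. The *CFB* window held an NF-kappa B, a GAS and a response element match, and the windows of *C1R* held 2 C/EBP matches and 1 GAS match. No match was found in the window of *CFD* or in the 2 windows of *CFP*. Matches are letters only and no binding was measured. No windows for *C3*, *C1S* and *SERPING1* were used here.

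*C3* (ENSG00000125730, chromosome 19, 6677704 to 6730562, minus strand), the component on which all complement pathways meet, was at 61.2, 59.3 and 55.3 CPM in NC. It was 297, 274 and 200 CPM in EUC and 253, 298 and 272 CPM in EPL. It was 318, 251 and 218 CPM in SUC and 320, 323 and 293 CPM in SPL. Each stimulated library exceeded each NC library, and EUC3 and SUC3 were the lowest of the stimulated libraries. The log2 fold changes were 2.13 in EUC (standard error 0.145, edgeR adjusted p = 2.15e-09), 2.23 in EPL (adjusted p = 1.35e-09), 2.16 in SUC (adjusted p = 2.85e-09) and 2.41 in SPL (adjusted p = 6.43e-10), which are 4.39-fold to 5.33-fold rises. Without the 4 libraries of the separate cluster the value was 2.34 in EUC, from EUC1 alone, and 2.29 in SUC. A lncRNA gene on the same strand shares 1357 exon bases with *C3* and had 64 reads over all libraries.

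*CFP* (ENSG00000126759, chromosome X, 47623172 to 47630305, minus strand) encodes properdin, which stabilizes the C3 convertase of the alternative pathway. It rose from 1.61 ± 0.697 CPM in NC to 4.55 ± 0.97 (EUC) and 5.06 ± 0.793 CPM (EPL) with *E. coli* BEVs, and to 5 ± 0.283 (SUC) and 4.73 ± 0.0945 CPM (SPL) with *S. aureus* BEVs (mean ± SD, n = 3). NC2, at 2.41 CPM, was the highest NC library, and the lowest stimulated library was at 3.88 CPM. The log2 fold change was 1.49 in EUC (standard error 0.246, edgeR adjusted p = 9.85e-05) and 1.64 in EPL (adjusted p = 3.41e-05), and 1.63 in SUC (adjusted p = 5.42e-05) and 1.55 in SPL (adjusted p = 8.54e-05). A lncRNA gene on the same strand covers 2751 of its exon bases and had 8 reads over all libraries.

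*CFB* (ENSG00000243649, chromosome 6, 31945650 to 31952086, plus strand), the catalytic subunit of that convertase, had few assigned reads. It had 0, 1 and 1 reads in the NC libraries. It had 9 reads over the EUC, 8 over the EPL, 12 over the SUC and 4 over the SPL libraries, and 9 of the 12 in SUC came from SUC1. Over the 12 stimulated libraries together the ratio of normalized reads to NC was 4.42 (95% exact binomial interval 1.13 to 38, counting error only). Of the 33 stimulated reads, 9 were from SUC1, and the interval without that library was not computed. The interval reached below 1 in EUC, EPL and SPL, so a change was not detectable there with these read counts. In SUC the ratio was 6.47 (1.44 to 59.6), and it rests on SUC1. *CFB* shares 24 exon bases with *C2*, which had 469 reads over all libraries against 35 for *CFB*. It also shares 2249 with a readthrough gene on the same strand that had 0 reads. How reads on shared bases were assigned is not given, and its part in the *CFB* counts was not tested.

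*CFD* (ENSG00000197766, chromosome 19, 859453 to 867884, plus strand) encodes factor D, the protease that cleaves factor B, and was the most abundant of the 10 genes. It was at 678, 697 and 726 CPM in NC. It was 634, 736 and 1074 CPM in EUC and 872, 591 and 552 CPM in EPL. It was 567, 596 and 936 CPM in SUC and 645, 654 and 615 CPM in SPL. The 4 libraries of the separate cluster, EUC2, EUC3, EPL1 and SUC3, were the only stimulated libraries above all NC libraries, and the other 8 were below all of them. The log2 fold changes were 0.22 in EUC (standard error 0.202, edgeR adjusted p = 0.424), -0.06 in EPL (adjusted p = 0.847), about 0 in SUC (adjusted p = 0.998) and -0.13 in SPL (adjusted p = 0.661). Without the 4 libraries the values were -0.14 in EUC, from EUC1 alone, -0.29 in EPL and -0.26 in SUC. Only stimulated libraries below all NC libraries then remain. The removal thus fixes the sign of these values, and no test of them is given. The level of *CFD* was highest and that of *C3* lowest in the 2 libraries whose short transcripts were highest against long ones, as the plot of both genes against that measure shows. The longest *CFD* transcript has 1191 bases and that of *C3* 5231. The part of transcript length in either level was not tested. *CFD* shares 255 exon bases with *MED16* on the opposite strand, which had 18996 reads over all libraries against 164788 for *CFD*.

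**Figure D2:**
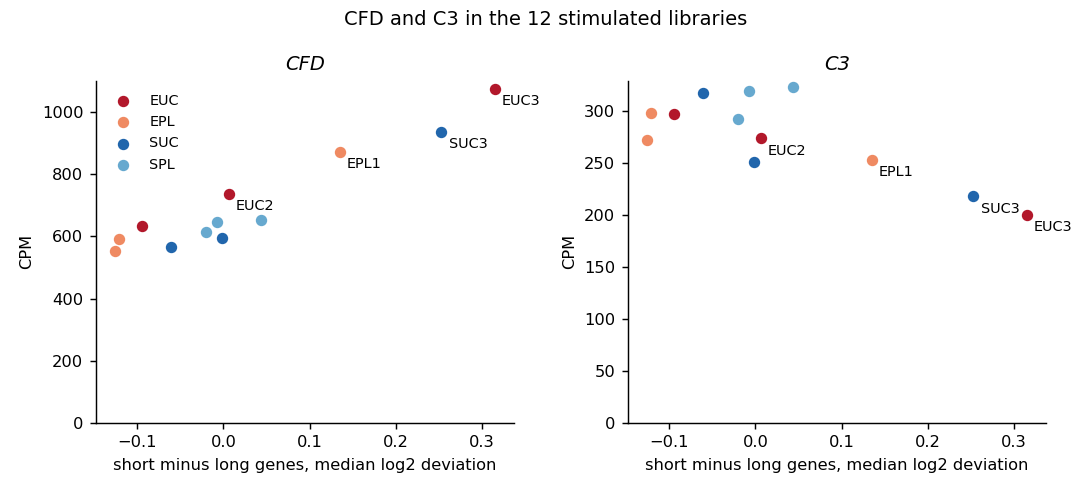
CPM of *CFD* (left) and *C3* (right) in the 12 stimulated libraries against the median log2 deviation of short minus long genes in the same library. Each point is 1 library, coloured by group, and the 4 libraries of the separate cluster are named. EUC3 (0.315) and SUC3 (0.253) had the highest *CFD* levels, 1074 and 936 CPM, and the lowest *C3* levels, 200 and 218 CPM.

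*C1S* (ENSG00000182326, chromosome 12, 6988259 to 7071032, plus strand), which encodes the protease that cleaves C4 and C2, was the only one of the 9 tested genes that was down-regulated in any group. It was at 2.69, 2.82 and 2.21 CPM in NC. It was 1.17, 0.961 and 0.526 CPM in EUC and 0.328, 0.701 and 0.687 CPM in EPL. It was 1.5, 1.37 and 1.19 CPM in SUC and 0.894, 1.35 and 0.827 CPM in SPL. All 12 stimulated libraries were below the lowest NC library, as was the case for 16.1% of all tested genes. The log2 fold change was -1.53 in EUC (standard error 0.32, edgeR adjusted p = 0.000936), -2.15 in EPL (0.34, adjusted p = 6.79e-05) and -1.32 in SPL (0.314, adjusted p = 0.00333). In SUC it was -0.92 (adjusted p = 0.0287) and was not called. The levels are low, with 127 reads over the NC and 27 to 62 over the libraries of each stimulated group. *C1S* shares 229 exon bases with a same-strand gene for which no reads were given. The call in SPL was lost without NC1, NC2, SPL1 or SPL3 (adjusted p = 0.013, 0.0174, 0.0206 and 0.0211), and that in EUC when the 4 libraries of the separate cluster were left out, where EUC1 alone stands for the group (log2 fold change -1.13, adjusted p = 0.0374).

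*C1R* (ENSG00000159403, chromosome 12, 7080214 to 7092540, minus strand), its partner protease in the C1 complex, lay between 0.255 and 1.28 CPM in stimulated and between 0.384 and 1.01 CPM in NC libraries. Every stimulated group overlapped with NC. Its log2 fold changes were 0.16 in EPL, -0.02 in SPL, -0.63 in SUC and about 0 in EUC, with standard errors of 0.612 to 0.665 and edgeR adjusted p-values of 0.519 to 0.996. *C1R* shares 672 exon bases with *C1RL* on the same strand, which had 3082 reads over all libraries against 144 for *C1R*. *SERPING1* (ENSG00000149131, chromosome 11, 57597387 to 57619171, plus strand), the inhibitor of both proteases, was at 0.669 ± 0.0704 CPM in NC. Its level was 1.22 ± 0.343 (EUC) and 1.27 ± 0.199 CPM (EPL) with *E. coli* BEVs, and 1.23 ± 0.435 (SUC) and 1.07 ± 0.103 CPM (SPL) with *S. aureus* BEVs (mean ± SD, n = 3). All 12 stimulated libraries were above all NC libraries, by as little as 0.82 against 0.715 CPM. The log2 fold changes (0.85 and 0.92 for EUC and EPL, 0.88 and 0.68 for SUC and SPL) did not pass the test (edgeR adjusted p = 0.0536, 0.0371, 0.058 and 0.147).

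**Figure D3:**
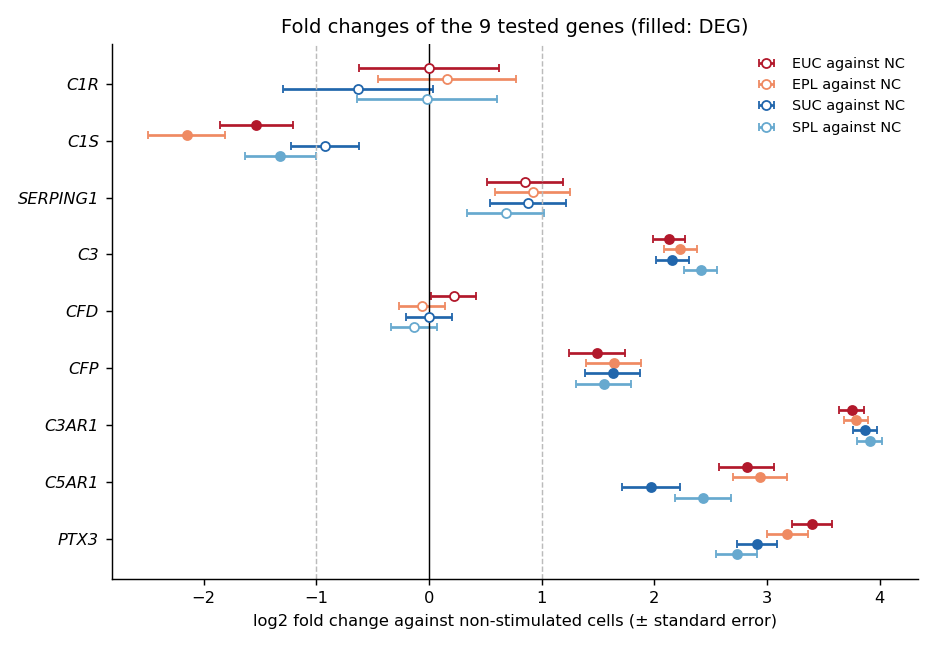
Log2 fold change against NC (horizontal axis, ± standard error) of the 9 tested genes in the 4 stimulated groups. Filled points are DEGs and dashed lines mark a log2 fold change of 1 in size. *C3AR1* lies furthest to the right in every group (3.75 to 3.91), *C1S* is left of -1 in EUC, EPL and SPL, and *CFD* and *C1R* lie around 0.

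Levels of different genes were compared per kilobase of exon. In NC cells the order was *CFD* (385 ± 13.5 CPM per kilobase), *C3* (5.06 ± 0.263), *PTX3* (2.86 ± 0.297), *C3AR1* (0.997 ± 0.148), *C5AR1* (0.466 ± 0.131), *C1S* (0.31 ± 0.0391), *CFP* (0.286 ± 0.124), *C1R* (0.111 ± 0.0568), *SERPING1* (0.0925 ± 0.00973) and *CFB* (0.00743 ± 0.00644), each as mean ± SD of 3 libraries. The ranges of *C5AR1*, *C1S* and *CFP* overlapped from one place to the next, as did those of *C1R* and *SERPING1*. In every stimulated group *CFD* stayed at the top and *CFB* at the bottom of the order. *C1S* moved from the sixth place in NC to the ninth in EUC and EPL and the eighth in SUC and SPL. In EUC cells *PTX3*, at 30.3 ± 7.26 CPM per kilobase, had the second place, ahead of *C3* at 22.2 ± 4.35, and their ranges of 23.2 to 37.7 and 17.3 to 25.7 overlapped. They overlapped in EPL and SUC as well. In SPL cells *C3* led with 27 ± 1.4 over *PTX3* with 19 ± 1.21, without overlap. Neighbours among *SERPING1*, *C1R* and *C1S* overlapped in EUC, EPL and SPL. The order of *C3* and *PTX3* in EUC and EPL turns when the longest transcript is used in place of the union of exons, since the union of *C3* is 11.6 and its longest transcript 5.23 kilobases long.

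**Figure D4:**
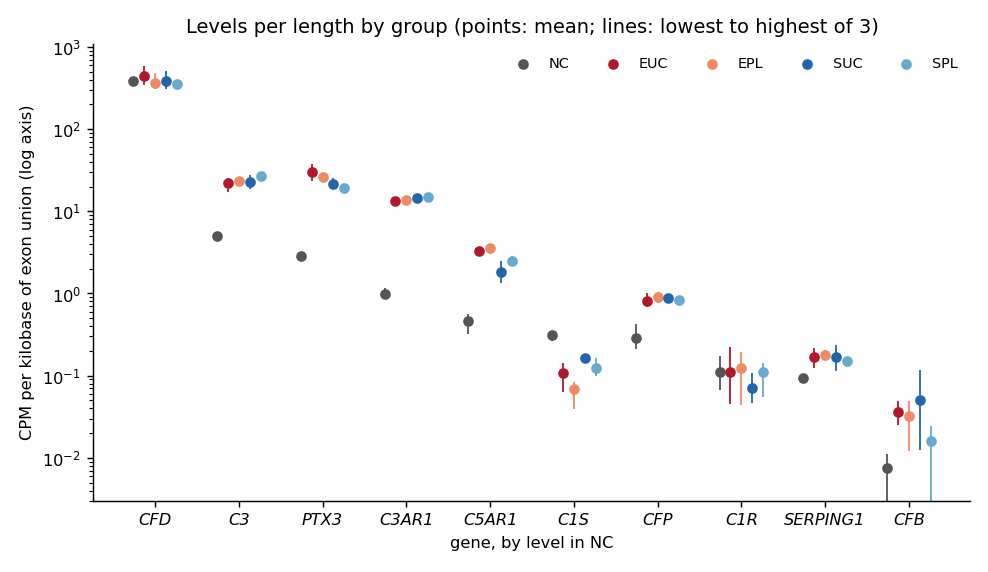
Level per length of the 10 genes on a log axis, ordered by the level in NC. Points are group means and lines run from the lowest to the highest of 3 libraries, reaching the lower edge where a library had no read. *CFD* is between 351 and 448 CPM per kilobase in all groups, while *C3AR1* moves from 0.997 in NC to between 13.5 and 15.

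The isolation methods were compared within each species. Of the 9 genes, 0 differed between EPL and EUC, where edgeR called 0% of all tested genes. The log2 differences ran from -0.62 (*C1S*, standard error 0.382) to 0.16 (*C1R*, 0.617), and the smallest edgeR adjusted p was 0.947. At an unadjusted edgeR p of at most 0.05 there were 0 of the 9, beside 604 of all 17198 tested genes, and DESeq2 called 0. Of the 9 genes, 0 differed between SPL and SUC either, where 0.00581% of all tested genes were called. The log2 differences ran from -0.40 (*C1S*, standard error 0.335) to 0.62 (*C1R*, 0.673), with a smallest edgeR adjusted p of 0.833. The 1 gene with an unadjusted p of at most 0.05 was *C5AR1*, which was 0.45 higher in SPL (standard error 0.208). Over all 17198 tested genes 1000 had such a p, so 1 of 9 is not read as a difference. DESeq2 called 0 here too. The difference of methods between the species was called for 0 of the 9, with 0% of all tested genes called, 0 at an unadjusted p of at most 0.05 and 0 called by DESeq2. A missed threshold does not show that the methods act alike, and the standard errors over the 3 comparisons ran up to 0.912.

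Compared between the species, with the means of both methods, 0 of the 9 genes were DEGs, against 0.686% of all tested genes. At an adjusted p of at most 0.01 without the fold threshold, 1 of the 9 differed, against 3.87% of all tested genes. This was *C5AR1*, higher with *E. coli* BEVs by 0.68 on the log2 scale (standard error 0.142, edgeR adjusted p = 0.00591). The adjusted p exceeded 0.01 in 8 of the 15 fits with 1 library left out and reached 0.0252 there, while the difference stayed between 0.59 and 0.81. *PTX3* was 0.47 higher with *E. coli* BEVs (standard error 0.108, adjusted p = 0.0108), and 0.30 higher without the 4 libraries of the separate cluster (adjusted p = 0.00333). Its adjusted p was at or under 0.01 in 8 of 24 fits. The remaining genes ran from -0.72 (*C1S*, adjusted p = 0.12) to 0.41 (*C1R*, adjusted p = 0.758), with *C3* at -0.11 and *C3AR1* at -0.12. A difference between the species is also one between 1 and 10 μg/mL.

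A wider list of 80 complement and acute-phase genes held these 10, and 35 of the 80 had enough reads for a test. DEGs numbered 11 up and 2 down in EUC, 10 up and 3 down in EPL, 8 up and 0 down in SUC, and 8 up and 1 down in SPL. Over all tested genes the shares were 9.43% up and 5.75% down in EUC, 9.38% and 5.15% in EPL, 6.82% and 3.06% in SUC, and 7.76% and 3.7% in SPL, so the 2 down-regulated genes of 35 in EUC are a share near the background. Without the 10 genes, 26 tested genes remain, of which 6 (EUC), 5 (EPL), 3 (SUC) and 3 (SPL) were up-regulated. The 35 had a median log2 fold change of 0.33 (EUC) and 0.39 (EPL) with *E. coli* BEVs and 0.31 (SUC) and 0.39 (SPL) with *S. aureus* BEVs. For the 26 the medians were 0.10 (EUC), 0.32 (EPL), 0.25 (SUC) and 0.25 (SPL), beside -0.00651 to 0.00673 for all tested genes. Beyond the 10 genes, *SERPINA1*, *CLU* and *CD59* were up-regulated in all 4 groups. *SERPINA1*, which encodes the protease inhibitor alpha-1-antitrypsin, rose from 1.6 ± 0.425 CPM in NC to 13.7 ± 2.75 (EUC) and 13 ± 0.967 CPM (EPL), and to 8.46 ± 0.685 (SUC) and 8.47 ± 1.15 CPM (SPL) (mean ± SD, n = 3). *CLU* encodes clusterin and *CD59* encodes the membrane protein CD59, both inhibitors of the terminal complex, and their log2 fold changes were 1.27 to 1.87 and 1.24 to 1.34. Their calls held in all 24 fits of each comparison.

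*C5*, the source of the fragment that C5AR1 binds, was lower in every stimulated library than in every NC library. It was at 37.1 ± 1.39 CPM in NC, at 15.9 ± 3.42 (EUC) and 17.9 ± 1.33 CPM (EPL) with *E. coli* BEVs, and at 20.5 ± 1.21 (SUC) and 18.7 ± 2.23 CPM (SPL) with *S. aureus* BEVs (mean ± SD, n = 3). It was called in EUC and EPL (log2 fold changes -1.22 and -1.05, edgeR adjusted p = 6.52e-07 and 3.7e-06). In SUC and SPL its log2 fold changes of -0.85 and -0.99 passed the p threshold (adjusted p = 5.05e-05 and 9e-06) but not the fold threshold. Without the 4 libraries of the separate cluster the log2 fold change was -0.90 in EUC, from EUC1 alone, and it was just short of the fold threshold in EPL. *C5AR2*, a second C5a receptor, was called in EUC and EPL (log2 fold changes 1.02 and 1.15, edgeR adjusted p = 0.0026 and 0.000988). The call in EUC was lost without NC1 or EUC2 and under 2 other scalings, and that in EPL without NC1, without EPL1 or without the 4 libraries. The subunits of C1q were sparse, and were picked after their values were seen. *C1QC* had 3 reads over the NC libraries and 42 over the EUC, 34 over the EPL, 15 over the SUC and 14 over the SPL libraries, and was called in EUC and EPL, with ratios to NC of 15 (95% exact binomial interval 4.78 to 75.5), 11.9 (3.75 to 60.7), 5.39 (1.53 to 29.1) and 5.05 (1.41 to 27.4). *C1QA* had 9 reads over the NC and 28 to 36 over the libraries of each stimulated group and was called in EUC only, a call lost without NC1, EUC1, EUC2 or the 4 libraries (EUC1 alone). *C1QB* had no read in NC, and 17 over the EUC, 10 over the EPL, 6 over the SUC and 4 over the SPL libraries. Against an assumed 3 reads over the NC libraries the ratios were 6.06 (EUC), 3.51 (EPL), 2.16 (SUC) and 1.44 (SPL). These ratios leave out the counting error of the stimulated groups and are not lower limits.

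By role, 2 of 7 tested convertase components (*C3* and *CFP*) were up-regulated in each group. *C5*, which the list places in the same role, was down-regulated in EUC and EPL. Of 9 tested receptors, 3 were up-regulated in EUC and in EPL and 2 in SUC and in SPL. These counts stand beside the shares of all tested genes given above and are too small to be read against them. *HP*, for haptoglobin, which like the C1q genes was picked after its values were seen, was called down in EPL (log2 fold change -1.79, edgeR adjusted p = 0.00665), and this was lost without any single NC library, EPL1, EPL3 or SPL1. Of the 6 genes listed as terminal components, which leave out *C5*, only 1, *C8G*, was tested, and it was not called. The classical liver acute-phase gene *CRP* had 1 read over all 15 libraries. *SAA1*, for serum amyloid A, had no read in NC. It had 11 reads over the EUC, 8 over the EPL, 7 over the SUC and 11 over the SPL libraries. Of the 11 in SPL, 9 came from SPL3, and SUC1 and SPL2 had no read. Against an assumed 3 reads over NC the ratios were 2.52 to 3.96, without the counting error of the stimulated groups. *CRP* and *SAA1* were also chosen after their values were seen.

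**Figure D5:**
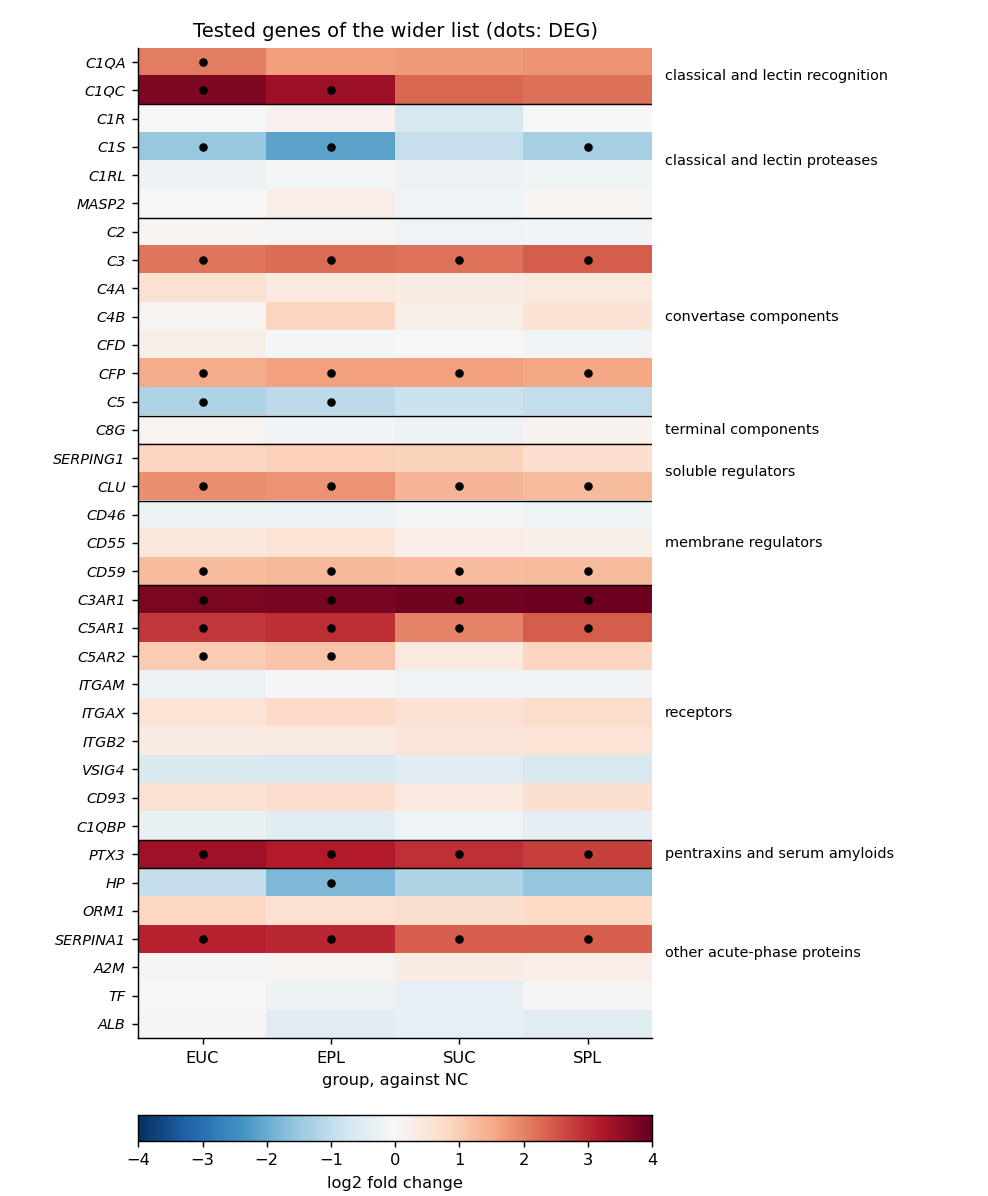
Log2 fold change against NC (colour scale) of the 35 tested genes of the wider list in the 4 stimulated groups, grouped by role. Black dots mark DEGs. *C3AR1*, *PTX3*, *SERPINA1*, *C5AR1* and *C3* are red throughout, and *C1S*, *C5* and *HP* are blue.

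The genes whose log2 CPM followed each member most closely over the 15 libraries were listed among 14525 other tested genes with a mean of at least 1 CPM, as a description that includes the step from NC to stimulated cells. For *C3AR1* they were *MIR3142HG*, *DRAM1* and *NFKBIZ* (Pearson's r of 0.997, 0.997 and 0.996). For *PTX3* they were *UXS1*, *GSR* and *TNFAIP8* (0.996, 0.995 and 0.995), and for *C3* they were *IKBKE*, *ABCC3* and *TBC1D17* (0.993, 0.993 and 0.992). *C5AR1* was closest to *PCSK5*, *IRF2* and *ZC3H12D* (0.982, 0.982 and 0.981), and *C1S* to *NAT10*, *ZMYND11* and *NOLC1* (0.941, 0.940 and 0.938). *CFD*, which varied between libraries rather than groups, was closest to *TUBB6*, *SCAND1* and *RPS19BP1* (0.970, 0.966 and 0.960). *CFP* was closest to *GPC5*, *PLXNA2* and ENSG00000275180 (0.964, 0.964 and 0.948), *SERPING1* to *RIOK3*, *TERF1* and *HACE1* (0.900, 0.898 and 0.896), and *C1R* to *THNSL1*, *RRN3P1* and *IPO5P1* (0.751, 0.738 and 0.693). These points share libraries and depth.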

How the data were processed

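RNA-seq of THP-1 cells in 15 libraries of 5 groups was analysed from the table of read counts that the authors deposited, which is not normalized. Reads were checked with FastQC and aligned to hg38 with HISAT2. The submitters' processing notes also name FastQC 0.11.5, HISAT2 2.1.0, StringTie 1.3.3b, DESeq 1.28.0 and featureCounts, without a role. Not given in the sources used here: strand setting and annotation release. Overlapping genes are therefore uncertain. The table has 60286 genes, 0 unused columns and 0 rows without a gene.

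Here edgeR 4.0.16 (R 4.3.3) was used with filterByExpr, TMM and a quasi-likelihood fit of all 15 libraries without a block, with Benjamini-Hochberg adjustment over 17198 genes. Standard errors are the log2 fold change over the root of the test's F. The thresholds (adjusted p of at most 0.01, log2 fold change of at least 1) follow the study, which used DESeq2, an alternative here (1.42.0). Log2 CPM used a prior count of 2. Intervals of ratios are exact binomial at 95% and cover counting error only. Where NC had no read, ratios use 3 reads over NC and leave out the counting error of the stimulated group. Gene positions and lengths are from GENCODE 44 on hg38. The fit was tested on simulated data.

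The 10 genes, the wider list and the tests were chosen with earlier results of these data known. Named besides the members were genes of the wider list called in any comparison with NC with a mean CPM of at least 1 (up to 12, by mean fold change). *HP*, *SAA1*, *CRP*, *C8G*, *ALB* and the C1q genes fall outside this rule. Also named were the 3 closest genes of each tested member. Alternatives were DESeq2, 3 other scalings, no filter, fewer groups, a replicate block, no fold threshold and each library left out. Leaving out the 4 libraries of a cluster together was added after the data were seen.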

Additional observations from a re-analysis of the deposited data

Results flagged for a closer look

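The means of the *E. coli* and *S. aureus* groups were compared in edgeR. At an adjusted p of at most 0.01 without the fold threshold, *C5AR1* and *SERPINA1* passed among the genes named here. *C5AR1* is a member of the list, and this 1 of the 9 tested members stands beside 3.87% of all tested genes. *SERPINA1* was named for its calls against NC, which rest on the same stimulated libraries, so it is not set against that share. *C5AR1* was higher with *E. coli* BEVs by 0.68 on the log2 scale (adjusted p = 0.00591), and the adjusted p exceeded 0.01 in 9 of 24 fits, reaching 0.0252. *SERPINA1* was higher with *E. coli* BEVs by 0.65 (adjusted p = 0.00134), and its adjusted p stayed at or under 0.00756 over all 24 fits. Neither reached the fold threshold of a DEG. Species and dose cannot be told apart here. Groups of 3 libraries are too small for a check of single outlying libraries.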

How the results depend on the processing

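The 5 up-regulated genes of the list numbered 5 in every comparison with NC under every alternative run, and with a replicate block 5 were up in each group and 1 was down in EUC, EPL and SPL. Whether the replicate numbers pair the libraries could not be decided. Deviations of libraries of different groups with the same number had correlations of -0.452 to 0.525 (mean 0.00946, 30 pairs). For libraries with different numbers they were -0.484 to 0.488 (mean -0.00359, 60 pairs). Of 15 libraries 7 were closest to one of their own number, and no expected count was worked out. The block changed no call among the 10 genes. Without the 4 libraries of a cluster apart, which leaves EUC1 alone in EUC, 0 of the genes were down in EUC and 0 of the wider list. The down-regulated genes in SPL ranged from 0 to 1 of the 9, and from 0 to 2 of the wider list, with 1 library left out. The down-regulated genes of the wider list in SPL were 2 with library totals only, upper-quartile factors, only the groups compared, no fold threshold or without the 4 libraries, and 1 in SUC without the fold threshold. Without the fold threshold, 1 gene was up in *E. coli* against *S. aureus*. With library totals only, the median log2 fold change of all tested genes moved to between -0.16 and -0.11.

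Log2 fold changes near 0 changed sign. For *C1R* in EUC the value was -0.15 with library totals, -0.09 with upper-quartile factors and -0.71 without the 4 libraries (EUC1 alone). For *CFD* it was -0.14 in EUC without the 4 libraries (EUC1 alone), and 0.02 without a filter and 0.01 with only the groups compared in SUC. Between the species, without the 4 libraries, it was -0.05 for *C1R*, -0.02 for *CFD* and 0.09 for *CFP*. With 1 library left out, *C1R* ranged from -0.96 to 0.49 in EUC, -0.32 to 0.65 in EPL, -0.27 to 0.47 in SPL and -0.08 to 0.62 between the species. *CFD* ranged from -0.04 to 0.37 in EUC, -0.29 to 0.06 in EPL and -0.27 to 0.14 in SUC. *CFP* ranged from -0.12 to 0.02 and *SERPING1* from -0.02 to 0.25 between the species. With the longest transcript as length, 2 genes changed place in the order of levels in NC, EUC, EPL and SPL. The causes were not tested. Low read counts limit what can be said of *CFB*, *C1R*, *C1S* and *SERPING1*. The part of depth, or of exon bases shared with other genes, in these counts was not tested.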
